A study of Mus musculus with 12 samples.

Results

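The genes described here encode the collagens, laminins, nidogen, perlecan, fibronectin and collagen-binding glycoproteins of the extracellular matrix. They were taken from lists of differentially methylated CpGs in mouse embryonic stem cells (ESCs) lacking Tet proteins. A CpG was a member when the gene annotated as nearest to it was a collagen (Col followed by a number), a laminin chain (Lama, Lamb or Lamc), or Nid1, Nid2, Hspg2, Fn1, Fbn1, Fbn2, Sparc, Sparcl1, Tnc, Tnxb or Agrn, and when it lay at most 50000 bp from the transcription start site (TSS) of that gene. The measured difference was not used to choose it. This gave 118 entries of 31671 over 5 lists, at 88 of 22659 CpG positions and for 35 genes. The assay was RRBS, reduced representation bisulfite sequencing, which reads CpGs in fragments cut at CCGG and so covers mainly CpG-rich DNA.

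All 12 samples were clones of undifferentiated ESCs grown on gelatin with LIF, and all derived from 1 parental line of 129/SVj origin that carries an Oct4:IRES:eGFP reporter. There were 3 WT clones without a Tet deletion, 3 Tet1-/- clones, 2 Tet2-/- clones, 2 clones lacking both Tet1 and Tet2 (DKO) and 2 clones lacking Tet1, Tet2 and Tet3 (TKO), the deletions made with CRISPR/Cas9. In 3 clones, 1 DKO and both TKO, title and genotype field disagreed on the knockout, and the title was used. Each deposited value is the authors' difference between 2 genotypes at a single CpG in percentage points, positive where methylation was higher in the knockout. A CpG was listed by the authors when it had at least 10 reads, a q-value below 0.05 and a difference of at least 25 points. All clones of a genotype entered each value together. Spread between clones, methylation levels and depth per CpG were therefore unknown, and no value below carries an error or a test of its own. The 4 lists against WT also share the same WT clones. RNA was not analysed here, so markers of the cells could not be checked.

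Matrix proteins assemble outside the cell into fibrils and sheets. Fibrillar collagens pack into fibrils whose width and surface are set by minor and fibril-associated (FACIT) collagens, while laminins, type IV collagen, nidogen and perlecan form the basement membrane, the sheet on which epithelia rest. Pluripotent cells make laminins early, and basement membrane is the first matrix of the embryo, whereas most fibrillar collagens belong to mesenchyme, cartilage and bone. Tet enzymes oxidise 5-methylcytosine, a step towards its removal. Bisulfite sequencing does not separate 5-hydroxymethylcytosine from 5-methylcytosine, so both counted as methylated.

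The results below turn on a few CpGs whose surroundings are shown first, as the DNA in which each difference was measured. The sequences are from the NCBIM37 (mm9) reference and run 5′ to 3′ on the strand of the gene, with the listed CpGs in capitals. The first 5 lie within 2000 bp of a TSS. They are Col11a2 upstream (chr17:34175438-34175671, plus strand, no annotated exon), Col9a2 promoter (chr4:120712052-120712080, plus strand, overlapping an annotated exon of the gene), Sparcl1 start (chr5:104543070-104543098, minus strand, in an exon of Sparcl1 and of the overlapping Gm16990), Col8a2 intron 1 (chr4:125964303-125964395, plus strand) and Col14a1 intron 1 (chr15:55139664-55139745, plus strand).
Col11a2 upstream: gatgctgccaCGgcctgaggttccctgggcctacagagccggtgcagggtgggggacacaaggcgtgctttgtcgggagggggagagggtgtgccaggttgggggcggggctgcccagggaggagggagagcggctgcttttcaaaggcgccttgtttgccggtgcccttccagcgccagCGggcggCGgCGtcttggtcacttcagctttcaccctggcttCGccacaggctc
Col9a2 promoter: aaagtagtccCGtacccCGagatgccccc
Sparcl1 start: agctgcttaCGagtaggaCGgttaaagca
Col8a2 intron 1: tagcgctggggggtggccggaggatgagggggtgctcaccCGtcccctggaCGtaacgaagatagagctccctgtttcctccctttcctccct
Col14a1 intron 1: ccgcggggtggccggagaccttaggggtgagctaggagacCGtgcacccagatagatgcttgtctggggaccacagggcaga

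The other 4 lie farther from a TSS and are shown because the same CpG was listed in several comparisons, with opposite signs at Col6a1 and Col5a1, or because its difference was the largest among the members, at Fn1. They are Lamc1 intron 1 (chr1:155175927-155176008, minus strand), Fn1 exon 27 (chr1:71656113-71656185, minus strand), Col6a1 intron 22 (chr10:76177531-76177612, minus strand) and Col5a1 upstream (chr2:27717610-27717691, plus strand, no annotated exon).
Lamc1 intron 1: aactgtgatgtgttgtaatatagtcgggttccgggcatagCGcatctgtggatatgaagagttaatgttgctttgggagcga
Fn1 exon 27: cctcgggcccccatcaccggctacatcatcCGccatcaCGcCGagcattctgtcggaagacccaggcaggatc
Col6a1 intron 22: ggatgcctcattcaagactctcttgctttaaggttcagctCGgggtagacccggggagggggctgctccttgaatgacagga
Col5a1 upstream: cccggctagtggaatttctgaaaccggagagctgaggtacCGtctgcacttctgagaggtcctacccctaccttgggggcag

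Matrix genes had CpGs with more and with less methylation than WT in each knockout. In Tet1-/- ESCs 17 of 28 member CpGs were higher than in WT (60.7%, exact 95% binomial interval 40.6 to 78.5%), against 65.6% of the 5571 CpGs listed for that genotype. In Tet2-/- ESCs 21 of 31 were higher (67.7%, 48.6 to 83.3%), against 77.7% of 6888. In DKO ESCs 9 of 22 were higher (40.9%, 20.7 to 63.6%), against 64.8% of 7078. Without the 4 CpGs in repeats, all of them lower, 9 of 18 DKO members were higher (50%, median -1.59 points), so a majority of lower CpGs was not kept. In TKO ESCs 16 of 25 were higher (64.0%, 42.5 to 82.0%), against 58.6% of 8001. The DKO share rests on annotation paired again with the coordinates, and in the deposited order it was 63.6%. Of all 1154 DKO repeat CpGs with annotation paired in this way, 56.8% were higher. These intervals treat CpGs as independent, which neighbouring CpGs are not, and cover counting error only. The shares of all listed CpGs include CpGs at any distance from a TSS.

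The median difference of the members was 27.7 points in Tet1-/-, 28.3 in Tet2-/-, -28.5 in DKO and 32.9 in TKO ESCs, beside 28.6, 33.3, 30.2 and 27.9 points over all listed CpGs. In Tet1-/- ESCs the median was -0.11 points for the 12 CpGs within 10000 bp. The lists start at 25 points, so a median near 0 means similar numbers of higher and lower CpGs. Over the 4 lists against WT, 63 entries were higher and 43 lower, at 82 positions. Of the 35 genes, 11 had only higher entries, 10 only lower and 14 both. The most CpG entries belonged to Col11a2 with 13, and Col11a2, Col6a1 and Lamc1 were among the 4 genes listed in all 4 knockouts, whereas 17 genes were listed in 1 knockout. A further 31 genes that fit the name rule in the GENCODE vM1 annotation, among them Col3a1, Col4a1, Col4a2, Lamb2, Fbn1 and Tnc, had no listed CpG, and whether their CpGs were covered is unknown.

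**Figure D1:**
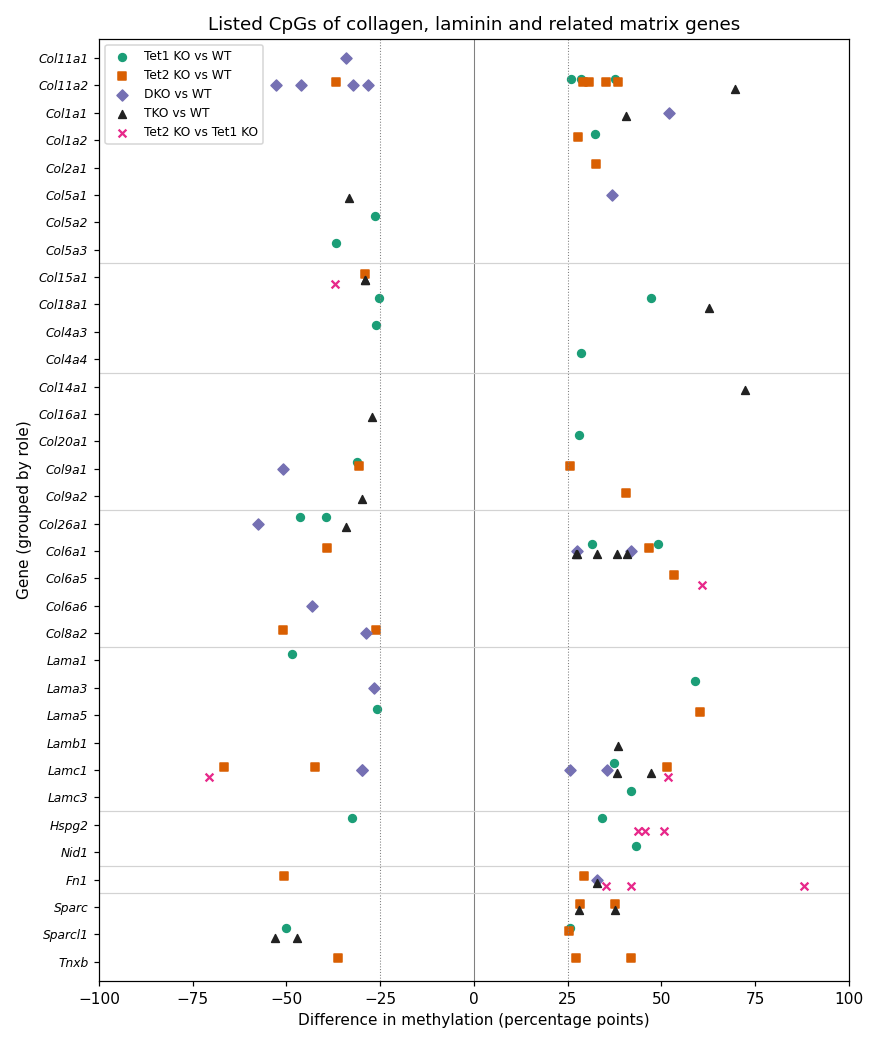
Difference in methylation in percentage points (horizontal axis) for listed CpGs of the matrix genes reported here (vertical axis), with a symbol for each comparison and crosses for Tet2-/- against Tet1-/-. Col11a2, Col6a1 and Lamc1, which were listed in all knockouts, each had points on both sides of 0, and no point lies within 25 points of 0 because the lists hold none.

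**Figure D2:**
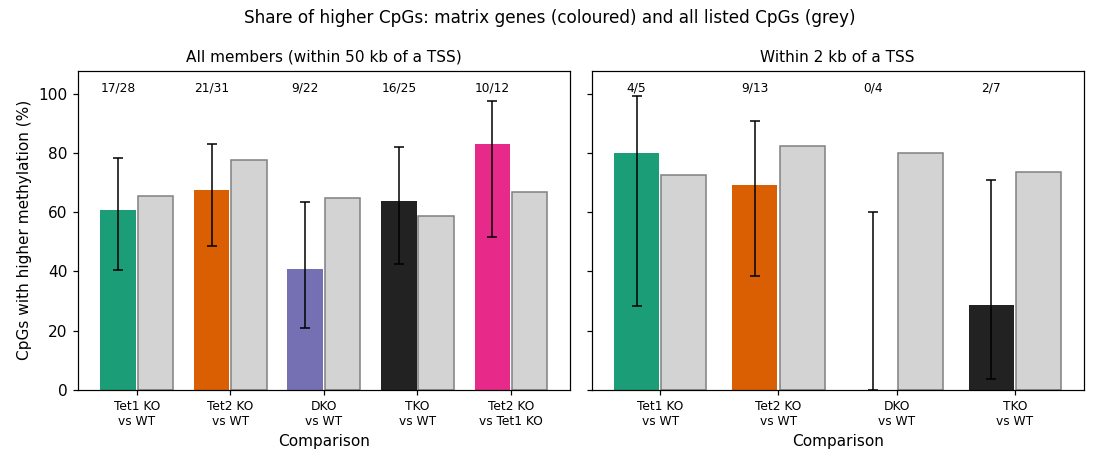
Share of listed CpGs that were higher in the knockout, in percent, for matrix genes and for all listed CpGs of each comparison, over all distances (members within 50000 bp) and within 2000 bp of a TSS. Near a TSS, the DKO bar for all listed CpGs holds only those whose annotation was paired again. Bars start at 0 and error bars are exact 95% binomial intervals over CpGs. DKO stands lowest among the matrix gene bars, at 40.9% over all distances and at 0 of 4 CpGs near a TSS.

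Close to a TSS, member CpGs were mostly higher in the single knockouts and mostly lower in DKO and TKO ESCs, on few CpGs. Within 2000 bp, 4 of 5 member CpGs were higher in Tet1-/- ESCs (72.6% of the 647 listed CpGs at that distance) and 9 of 13 in Tet2-/- ESCs (82.7% of 912). In DKO ESCs 0 of 4 were higher (interval 0 to 60.2%), against 80.2% of 635, and in TKO ESCs 2 of 7 were higher (3.67 to 71.0%), against 73.8% of 1022. Over the 4 lists this made 15 higher and 14 lower entries near a TSS, where all listed CpGs numbered 2487 higher and 729 lower. Farther out, 13 of 23, 12 of 18, 9 of 18 and 14 of 18 member CpGs were higher in Tet1-/-, Tet2-/-, DKO and TKO ESCs (56.5%, 66.7%, 50% and 77.8%), beside 65.0%, 77.6%, 67.2% and 59.0% of all CpGs listed at that distance. For DKO, the listed CpGs at a given distance come only from the 5587 of 7078 whose annotation was paired again. Pairing needed a promoter found in another list, so this DKO background is partial. Among differences of at least 40 points the counts near a TSS were 1 of 1, 1 of 2, 0 of 2 and 2 of 4 higher, so the majorities in Tet2-/- and TKO were not kept. Several entries near a TSS are neighbours in 1 gene. The counts within 2000 bp came from 4 genes in Tet1-/-, 8 in Tet2-/-, 4 in DKO and 5 in TKO ESCs.

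**Figure D3:**
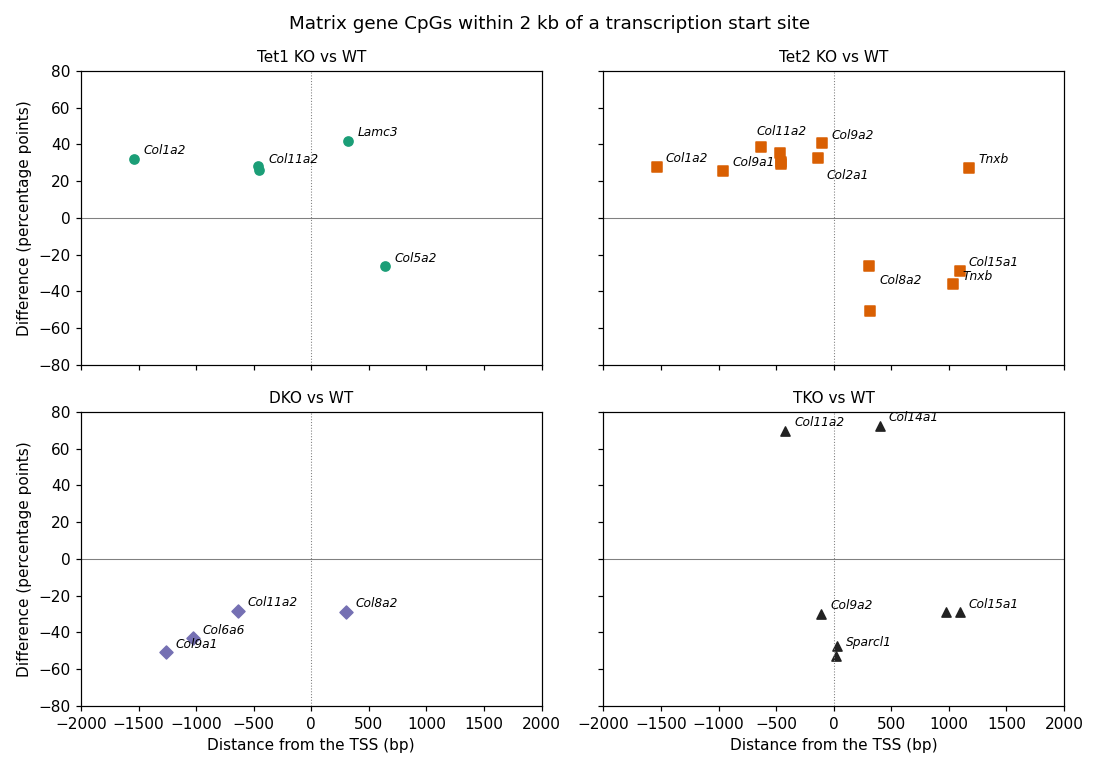
Difference in methylation from WT in percentage points against the distance from the TSS in bp (negative upstream) for member CpGs within 2000 bp, with a panel for each knockout and gene names beside the points. In the DKO panel the 4 CpGs, of Col9a1, Col6a6, Col11a2 and Col8a2, were all lower, and in the TKO panel Col11a2 and Col14a1 were 69.7 and 72.4 points higher.

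The genes near whose TSS methylation differed played different parts in the matrix. Col11a2, a chain of the minor cartilage collagen XI, and Col2a1, the main cartilage collagen, were higher in Tet2-/- ESCs, Col2a1 by 32.6 points at 140 bp upstream. Col1a2, a chain of type I collagen of bone and skin, was higher at 1538 bp upstream in both single knockouts, by 32.2 points in Tet1-/- and 27.6 in Tet2-/-, at a CpG within an L1 repeat. Col14a1, a FACIT collagen, was 72.4 points higher in TKO ESCs at 399 bp into the gene, so WT was methylated at no more than 27.6% there. Lamc3, a laminin gamma chain, was 41.8 points higher in Tet1-/- ESCs in its first exon.

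Lower methylation near a TSS was found at the genes that follow, some of which also had higher CpGs there. It was also found at Col11a2 in DKO ESCs, with -28.2 points at 635 bp upstream. Col8a2, a short-chain collagen of the corneal endothelium, was lower at 305 bp into the gene in Tet2-/- (-26.1 points) and DKO (-28.8) and at 316 bp in Tet2-/- (-50.8), in a CpG island. Col15a1, a collagen of basement membrane zones, was lower at 1093 bp in Tet2-/- and TKO ESCs (-29.0 points in each, within a SINE repeat) and at 978 bp in TKO (-29.1). Sparcl1, a secreted glycoprotein related to Sparc, was lower at 19 and 28 bp into the gene in TKO ESCs (-52.9 and -47.2 points), which bounds TKO methylation at 47.1% and 52.8%. In DKO ESCs Col9a1 was lower at 1261 bp upstream (-50.9) and Col6a6 at 1028 bp upstream of the TSS of 1 transcript (-43.2), both within SINE repeats. The Col6a6 CpG lies in intron 1 of 36 of a longer transcript, within the body of the gene. Col5a2, a chain of the minor fibrillar collagen V, was lower in Tet1-/- ESCs at 642 bp (-26.5). Col9a2, whose product joins that of Col9a1 in the FACIT collagen IX of cartilage, was 40.4 points higher in Tet2-/- at 102 bp upstream and had -29.8 points in TKO at 109 bp upstream. Tnxb, which encodes the collagen-binding tenascin-X, had both signs in Tet2-/- ESCs, with -36.2 points at 1035 bp and 27.3 points at 1176 bp.

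Among the fibrillar collagens, 14 of 23 entries were higher (60.9%), over 8 genes, beside 66.4% of all 27538 entries in the 4 lists. The 66.4%, here and below, covers entries at any distance, whereas members lie within 50000 bp of a TSS. Col11a2 carried the upstream cluster printed above. At 465 bp and 455 bp upstream methylation was higher in both single knockouts, by 28.4 and 25.8 points in Tet1-/- and by 35.2 and 29.2 in Tet2-/-, which also had 30.6 points at 458 bp. At 423 bp upstream TKO was 69.7 points higher, the largest difference of the gene. The outermost CpG of this window, at 635 bp upstream, was 38.5 points higher in Tet2-/- and had -28.2 points in DKO. Inside the gene, 3 CpGs in intron 56 were lower in DKO ESCs, as the DKO value upstream was. They had -46.0, -32.3 and -52.7 points at 23798, 23852 and 23854 bp from the TSS. The last of these was lower in Tet2-/- as well (-36.7), and an exon CpG at 24996 bp was 37.6 points higher in Tet1-/-. Among the knockouts, only Tet2-/- had both signs at this gene.

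Col1a1, which encodes the other chain of type I collagen, was higher within its exons in DKO ESCs (52.1 points, exon 13 of 51) and in TKO ESCs (40.5 points, exon 21). Col5a1 had 1 CpG 24295 bp upstream that was 36.8 points higher in DKO and had -33.4 points in TKO. Col5a3 was listed in Tet1-/- (-36.9) and Col11a1 in DKO (-34.0), each at a single CpG far from the TSS.

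Basement membrane collagens had 3 higher and 5 lower entries over 4 genes (37.5% higher, beside 66.4% of all). Col18a1, whose C-terminal fragment is endostatin, had the highest value of the group. In Tet1-/- ESCs it was 47.2 points higher at 23796 bp into the gene and had -25.4 points at 12183 bp upstream, and in TKO ESCs a nearby CpG at 12211 bp upstream was 62.8 points higher, both upstream CpGs lying in an ERVK repeat. Col4a3 and Col4a4, chains of the kidney and lung type IV collagen that are transcribed away from each other, were listed in Tet1-/- alone among the knockouts, with -26.1 and 28.5 points. FACIT collagens, with 4 higher and 5 lower entries over 5 genes (44.4% higher, beside the same 66.4%), included Col9a1, whose exon 5 was lower in both single knockouts (-31.3 points in Tet1-/- and -30.6 in Tet2-/-) while a CpG 963 bp upstream was 25.7 points higher in Tet2-/-. Col20a1 (28.0 points, Tet1-/-) and Col16a1 (-27.1 points, TKO) had 1 exonic CpG each.

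Network, beaded-filament and other collagens had 11 higher and 9 lower entries over 5 genes (55% higher, beside 66.4% of all). Col6a1, a chain of the beaded filaments around muscle and other cells, was higher at all but 1 of its CpG entries. They included 49.0 points in Tet1-/- and 46.8 in Tet2-/- at the CpG 41935 bp upstream, 31.5 in Tet1-/- and 38.3 in TKO at 44912 bp upstream, and 27.4 in both DKO and TKO in exon 5 of 35. The 4 entries farthest upstream lie in the body of the neighbouring gene Pcbp3 and were assigned to Col6a1 by distance. In TKO ESCs 3 further upstream CpGs were higher, by 40.9, 27.3 and 32.9 points at 3923, 3926 and 8561 bp. The exception was the intron 22 CpG at 11218 bp, with -39.3 points in Tet2-/- and 41.9 in DKO. Col26a1 was lower at each of its 4 entries, with -46.5 and -39.5 points in Tet1-/-, -57.5 in DKO and -34.0 in TKO, the CpG at 4660 bp upstream being listed in Tet1-/- and DKO. Col6a5, a chain related to those of collagen VI, was 53.4 points higher in Tet2-/- at 8162 bp upstream.

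Laminin genes had 18 higher and 9 lower entries over 7 genes (66.7% higher, close to the 66.4% of all entries at any distance). Lamc1, which encodes the gamma chain shared by most laminins, including those of early embryos, had 6 higher and 4 lower entries at 7 positions. The intron 1 CpG at 3949 bp was lower in Tet2-/- (-66.8 points) and in DKO (-29.9). With a difference of that size the Tet2-/- clones were methylated at no more than 33.2% and WT at no less than the difference itself. Farther into the gene methylation was higher in several genotypes, with 35.6 points in DKO and 47.2 in TKO at 10883 bp, 38.2 in TKO at 11053 bp, and 37.5 in Tet1-/- and 25.7 in DKO at 46360 bp, while Tet2-/- had -42.5 points at 29728 bp. Upstream, a CpG at 13316 bp was 51.5 points higher in Tet2-/- and another at 21247 bp had -29.9 points in DKO.

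Lama1, an alpha chain of the first embryonic laminin, had -48.5 points in Tet1-/- ESCs at 7826 bp upstream. Lama5, an alpha chain that ESCs themselves secrete, had -25.8 points in Tet1-/- and 60.2 in Tet2-/-, at different CpGs within the gene. Lama3, an alpha chain of epithelial basement membranes, was 58.8 points higher in Tet1-/-, the highest member value of that genotype, and had -26.6 points in DKO at another CpG. Lamb1, a beta chain, was 38.5 points higher in TKO. Of the linkers, Nid1, which bridges laminin and type IV collagen, was 43.1 points higher in Tet1-/- in exon 2, and Hspg2 (perlecan) had 34.1 and -32.5 points in Tet1-/- at 10066 and 16186 bp.

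Fibronectin and the matricellular proteins were listed mainly in Tet2-/- and TKO ESCs. Fn1 was higher at 42158 bp into the gene in DKO and TKO (32.9 points in each), and in Tet2-/- it had 29.3 points at 11636 bp and -50.6 points at 29366 bp. Sparc, a collagen-binding glycoprotein also called osteonectin, was higher at both of its CpGs, in the last exon, in Tet2-/- (28.3 and 37.6 points) and in TKO (28.1 and 37.6). Sparcl1 had opposite signs in the single knockouts at 5345 bp upstream, with -50.1 points in Tet1-/- and 25.5 in Tet2-/-, and 25.6 points in Tet1-/- at 3298 bp. Tnxb was 41.9 points higher in Tet2-/- at 15222 bp.

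Of the 82 member positions, 23 were listed in 2 or more knockouts. At 4 of them the sign was opposite between knockouts, namely Col11a2 at 635 bp upstream, Col5a1 at 24295 bp upstream, Col6a1 at 11218 bp and Sparcl1 at 5345 bp upstream. At 4 others the value was the same in 2 lists within 0.0001 points, for Fn1 and the Col6a1 exon 5 CpG between DKO and TKO and for Sparc and Col15a1 between Tet2-/- and TKO. The WT clones are common to these comparisons. Both pairs of genotypes include the TKO clones. Genotype field and title disagree in both TKO clones and in a DKO clone. Among the related genes described below, equal values also occurred without TKO. Lox had 66.1 points in Tet1-/- and DKO, and Smoc1 42.7 in both single knockouts. What lies behind the equal values was not tested. How many of all listed positions were shared, opposite in sign or equal is not given here. Whether the counts of the matrix genes stand apart from them is therefore unknown.

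**Figure D4:**
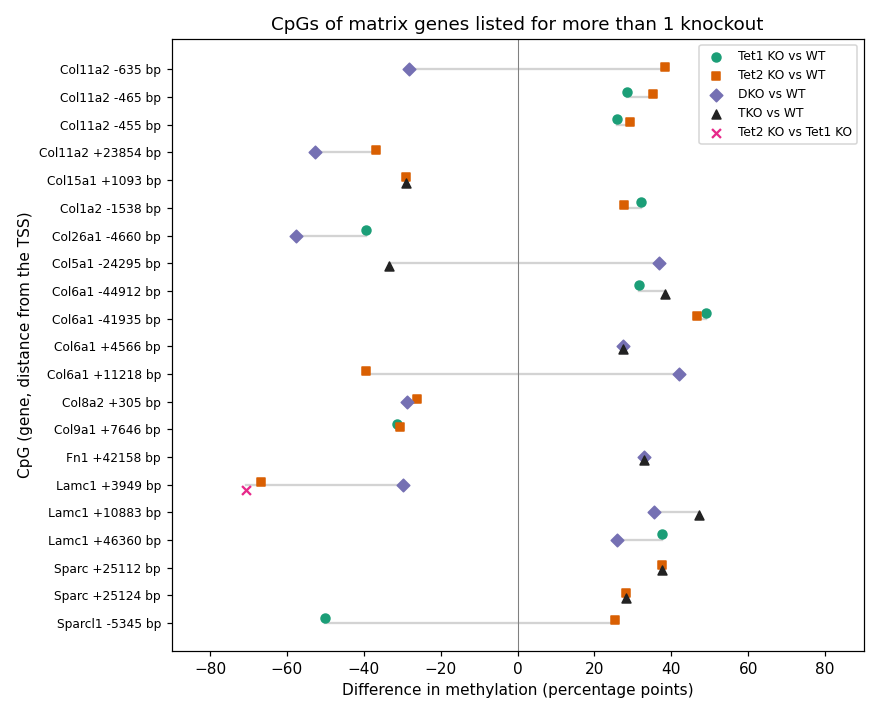
Difference in methylation from WT in percentage points (horizontal axis) at 21 of the 23 member CpGs listed in 2 or more knockouts (vertical axis, gene and distance from the TSS in bp), with a symbol for each knockout and crosses for Tet2-/- against Tet1-/- where listed. Points of 4 CpGs lie on opposite sides of 0, those of Col11a2, Col5a1, Col6a1 and Sparcl1 named above.

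The direct comparison of Tet2-/- with Tet1-/- ESCs listed 12 member CpGs in 6 genes. Methylation was higher in Tet2-/- at 10 of 12 (83.3%, exact 95% interval 51.6 to 97.9%), against 67% of 4133 CpGs listed for that comparison, with a median difference of 44.7 points beside 30.1 over all. The interval treats CpGs as independent, although several of the 12 are close neighbours. With CpGs within 1000 bp merged, 6 of 8 were higher (75%), nearer to the 67%. None of the 12 lay within 2000 bp of a TSS. In exon 27 of 45 of Fn1, 3 neighbouring CpGs were higher in Tet2-/-, by 41.8, 35.2 and 87.9 points at 43665, 43662 and 43654 bp. The last was the largest difference at any matrix gene, and it bounds Tet1-/- methylation at 12.1% there. None of the 3 was listed for either single knockout against WT. On the same reads, WT could not lie within 25 points of both genotypes at the CpG with 87.9 points. Its absence from the lists against WT therefore does not mean no change in both, and the reason for it was not tested. Hspg2 was higher at 3 CpGs, by 45.7, 50.7 and 43.8 points, the first at the CpG that was lower in Tet1-/- against WT. Col15a1 was lower (-37.0).

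Other CpGs of the direct comparison were also listed in Tet2-/- against WT, with values close to each other. Lamc1 had -70.7 points against Tet1-/- and -66.8 against WT in intron 1, and 51.9 and 51.5 at 13316 bp upstream. Col6a5 had 60.8 against Tet1-/- and 53.4 against WT. The 2 comparisons share the Tet2-/- clones, and none of these CpGs was listed in Tet1-/- against WT. The direct list holds cytosines of both strands and the lists against WT forward positions alone, so paired values may not rest on the same reads.

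Of the 106 member entries against WT, 27.4% were within 2000 bp of a TSS, compared with 17.1% of 18791 entries within 50000 bp for all genes. These 18791 leave out DKO entries whose annotation could not be paired again. Promoters held 13.2% of members and 5.45% of all, introns 46.2% and 38.8%, exons 14.2% and 15.6%, and intergenic DNA 21.7% and 34.5%. The 14 member entries in promoters came from 5 genes. Col11a2 held 2 of them in Tet1-/-, 4 in Tet2-/-, 1 in DKO and 1 in TKO ESCs. All of these lay in its upstream window of 234 bp, so the promoter share rests largely on 1 gene, and the share within 2000 bp partly. Annotated repeats held 14 member entries (13.2%, beside 19.1%), of which 6 were higher and 8 lower. Of all listed repeat CpGs at any distance, 62.3% were higher in Tet1-/-, 74.4% in Tet2-/-, 56.8% in DKO and 46.1% in TKO ESCs. The DKO share holds only CpGs whose annotation was paired again. No test was made of these shares, because CpGs of a gene are not independent and the tested CpGs are unknown. The DNA around the 82 positions was much like that around the 20896 positions of the 4 lists, with a median of 4 CpGs per 101 bp in both and a GC content of 55.4% beside 52.5%. A CCGG lay within 40 bp of 98.8% of member positions and 98.1% of all, as the RRBS method selects. The 23 positions near a TSS had a median of 5 CpGs per 101 bp and 62.4% GC, and the 59 farther ones 3 CpGs and 54.5%. By the annotated gene bodies, 74 of the 118 entries lay in the gene they were assigned to, 35 in no gene and 9 in another gene alone, such as Pcbp3 or Gm16990.

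Genes that act on the matrix or bind it were described by 4 further lists, at the same distance of 50000 bp and over the same 4 knockouts. Matrix receptors, mainly integrins and the discoidin receptors Ddr1 and Ddr2, had 28 higher and 3 lower entries over 12 genes (90.3% higher, beside 66.4% of all 27538 listed entries at any distance and 59.4% of the matrix genes themselves). Collagen processing enzymes, such as the lysyl oxidases that cross-link collagen, had 11 higher and 2 lower entries. Proteases and their inhibitors had 11 higher and 8 lower entries, and proteoglycans and other glycoproteins 29 higher and 20 lower. In these counts a CpG listed in several knockouts counts once for each. Ddr2 at 20369 bp upstream did so with 31.3 points in Tet2-/-, DKO and TKO. Since the knockouts also share the WT clones, the entries are not independent.

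Near a TSS, Lox was 66.1 points higher in Tet1-/- and DKO at 1601 bp, and Ddr1, a collagen receptor, was 31.8 points higher in Tet1-/- and 66.4 in DKO at 299 bp upstream, with -29.0 in Tet2-/- at 222 bp and 27.8 points in Tet2-/- against Tet1-/- at 152 bp. Smoc1, a glycoprotein related to Sparc, was 42.7 points higher in both single knockouts at 1241 bp. Mmp23, a membrane-bound metalloproteinase, was higher in Tet1-/- (25.4) and Tet2-/- (34.4) beside its TSS, and also in Tet2-/- against Tet1-/- (34.4). Adamts5, an enzyme that cleaves aggrecan, was higher in Tet1-/- at 2 CpGs (48.6 and 28.1 points) and had -33.2 points in Tet2-/- against Tet1-/-. Bcan, a proteoglycan of brain, had 31.8 points in Tet1-/- and -48.7 in Tet2-/- at different CpGs, and Efemp2, a protein of elastic fibres, -40.8 points in Tet1-/- and 34.1 in TKO. Acan, the main cartilage proteoglycan, was 25.6 points higher at 59 bp upstream in Tet2-/- and had the largest values of these lists, 78.1 points in Tet2-/- against WT and 75.6 against Tet1-/- at 36175 bp into the gene. Tnn, a tenascin, led the related genes in TKO with 58.6 points.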

How the data were processed

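RRBS libraries of 12 ESC clones were grouped by sample title. According to their methods and notes, the authors used Trim Galore 0.5 for trimming, Bismark 0.19.1 for alignment to mm9, methylKit for the comparison of genotypes and HOMER for annotation. The deposited values are the authors' differences in methylation in percentage points, with distances to the nearest TSS in bp. Only CpGs with at least 10 reads, a q-value below 0.05 and 25 points or more were listed (smallest 25.0024), so depth and levels per CpG are unknown and depth could not be used to weigh a value.

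Members were chosen by gene name and distance as stated in the report. Members and gene lists were chosen with earlier results of these data known. Named CpGs were those within 2000 bp of a TSS, those listed in 2 or more knockouts, genes with 3 or more entries over the lists against WT, the 3 highest and 3 lowest of each list and, in the direct comparison, genes with 2 or more entries. Related genes were named when listed within 2000 bp of a TSS in 2 or more lists or when they held the largest absolute difference of a list. Remaining members named in the report (such as Lamb1, Nid1, Col4a3, Col4a4, Col5a3, Col11a1, Col16a1 and Col20a1) were added after their values were seen, to describe further members. For 1 member gene, which is part of the counts, values are not reported here.

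Annotation columns of the DKO list did not follow the order of its coordinates. They were paired again through the promoter's position in another list plus the distance: 5589 of 7078 rows had such a promoter, 5587 gave a unique position, and all 22 member annotations were among them. Pairing was tested on a shuffled copy of another list. The direct list held 2090 forward and 2036 reverse cytosines, and the lists against WT held no reverse ones. Reverse-strand cytosines of the direct list were moved to the forward cytosine. A value of the direct list may thus refer to 1 strand of a CpG. Sequence, CpG density and gene bodies came from NCBIM37 and GENCODE vM1. Intervals are exact (Clopper-Pearson). No p-value was computed, because no list holds values per clone. Alternatives were a minimum of 40 points, a distance of 10000 bp, merging within 1000 bp, repeats left out, a 1000 bp window and the DKO annotation as deposited. Python 3.11.15, pandas 2.3.3, numpy 2.4.6, scipy 1.17.1, pysam 0.24.0 and matplotlib 3.10.9 were used.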

Additional observations from a re-analysis of the deposited data

Results flagged for a closer look

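At 4 member CpGs a pair of knockouts differed from WT in opposite directions. The matching number over all listed CpGs is not given here. The Col6a1 CpG at 11218 bp had -39.3 points in Tet2-/- and 41.9 in DKO, and the Col11a2 CpG at 635 bp upstream had 38.5 in Tet2-/- and -28.2 in DKO. The Col5a1 CpG at 24295 bp upstream had 36.8 points in DKO and -33.4 in TKO, and the Sparcl1 CpG at 5345 bp upstream had -50.1 in Tet1-/- and 25.5 in Tet2-/-. The difference between the knockouts was not tested, since the lists hold pooled values of all clones of a genotype and whether each clone moved the same way is unknown.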

How the results depend on the processing

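With CpGs within 1000 bp merged, the share higher and the median of each of the 5 lists kept their direction. With repeats left out they did so except in DKO, where 9 of 18 CpGs were higher (50%) and the median was -1.59 points, since all 4 DKO repeat CpGs of members were lower. Of all listed DKO repeat CpGs with annotation paired again, 56.8% were higher. A minimum of 40 points left 8 member CpGs in Tet1-/-, 12 in Tet2-/-, 8 in DKO and 8 in TKO, of which 1, 2, 2 and 4 were within 2000 bp of a TSS, with 1, 1, 0 and 2 of these higher. A distance of at most 10000 bp left 12, 20, 10 and 15, and 4 in the direct comparison, and turned the Tet1-/- median to -0.11 points (6 of 12 higher). Within 1000 bp of a TSS DKO kept 2 CpGs, 0 of them higher. With the DKO annotation in the deposited order, 63.6% of DKO members were higher and the median was 32.9 points, so the sign of the DKO result depends on pairing the annotation again. Fewer CpGs pass a stricter limit by construction.

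No paired analysis was possible because no list has a column for a single clone, and leaving out each replicate could not be run for the same reason. Since CpGs below the authors' limits were not listed, an unlisted CpG may be unchanged, changed without passing all limits, or not covered. Depth per CpG is unknown. Just inside the distance limit lay Col4a4 (47898 bp, 28.5 points, Tet1-/-) and Col11a1 (47239 bp, -34.0, DKO), and just outside it Col6a6, with 43.9 points in Tet2-/- at 50671 bp. Beyond the limit lay 44 further entries of these genes.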
